A study of Mus musculus with 298 samples.

Results

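Sympathetic neurons that use acetylcholine were set beside a noradrenergic identity that also carries Gfra2, Ret and Lifr: 16 cells labelled Ach1 (8 cells) or Ach2 (8 cells), called cholinergic here, and 18 cells labelled Noradrenergic4, together 34 of the 298 cells of the series. The cells were chosen by the identity in their labels alone. All were single cells of the thoracic sympathetic ganglion of mice that carry Wnt1-Cre and R26R-Tomato, in which the neural crest driver Wnt1-Cre switches on a red reporter, and they were caught on microfluidic chips and kept where a capture site held 1 healthy-looking cell. The labels name no animals, so a collection, meaning all cells of 1 labelled sex and age, was the replicate. Cholinergic cells came from 7 collections: P16, P30, P31 and P33 female and P29, P30 and P38 male, where P is the postnatal day. Noradrenergic4 cells came from 5: P11, P30, P31 and P33 female and P38 male. The kinds share 4 collections (P30, P31 and P33 female and P38 male). No treatment separates them. The comparison group of other noradrenergic cells, 175 cells labelled Noradrenergic1, 2, 3 or 5, came from 10 collections of mice of the same kind. Of these cells 46 were labelled male and 129 female. The 10 collections are those named above and P20 and P34 female, which held neither cholinergic nor Noradrenergic4 cells. Whether animals were shared between the groups is not known.

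The table holds a whole-number count for each gene and cell. Totals ran from 13927 to 64428 counts in cholinergic cells (median 32937) and from 15124 to 81589 in Noradrenergic4 cells (median 33144), with medians of 6443.5 and 6223.5 genes detected. Of the cholinergic cells 9 were labelled male and 7 female, and of the Noradrenergic4 cells 4 and 14. Several libraries rest on few cells: the cholinergic cells of P30 male and P33 female and the Noradrenergic4 cells of P11 female are 1 cell each. The P16 collection is labelled female, but its 5 cells held 28 counts of Y-linked genes and 0 of Xist, so its sex label is in doubt. A level below is the number of counts of a gene per 10000 counts of the cells of a collection, which does not correct for transcript length and is compared between cells only, not between genes. Noradrenergic4 levels are listed in the order P11, P30, P31 and P33 female, P38 male, and cholinergic levels as the lowest, the median and the highest of the 7 collections. A gene without a count was below 0.0552 per 10000 in the cholinergic cells and below 0.0454 in the Noradrenergic4 cells, the levels that 3 counts over all cells of the group would give. How a cell received its identity is not stated in the labels. If the same transcriptomes were used, the p-values of genes that define the identities are no independent evidence.

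Most sympathetic neurons release noradrenaline, made from tyrosine by tyrosine hydroxylase (Th), dopa decarboxylase (Ddc) and dopamine beta-hydroxylase (Dbh). A minority, known for supplying sweat glands, the periosteum and some blood vessels, makes acetylcholine with choline acetyltransferase (Chat) and loads it into vesicles with the transporter Slc18a3. In that minority Gfra2, the co-receptor through which neurturin acts on the receptor tyrosine kinase Ret, is a known marker, and cytokines that act through Lifr, the receptor subunit for leukaemia inhibitory factor, can switch cultured sympathetic neurons from noradrenaline to acetylcholine. Some noradrenergic neurons also carry Gfra2 and Ret.

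The labels were checked against markers of each kind. Vip, the vasodilator peptide of cholinergic sympathetic neurons, stood at 42.6, 89.1 and 151 counts per 10000 in the cholinergic collections, and at 0, 0.0881, 0.0402, 0 and 0 in Noradrenergic4 cells. Over all cells this was 4541 against 2 counts, a 2761-fold difference (exact 95% interval 764 to 22809, counting error only). Slc18a3 stood at 0.718, 1.67 and 4.30 in cholinergic collections and had 0 counts in Noradrenergic4 cells, at least 52.7-fold lower. Neither gene overlapped between the kinds of cell. Hand2, a helix-loop-helix factor of sympathetic neurons, was found in 15 of 16 cholinergic and 18 of 18 Noradrenergic4 cells, and Chrna3, the nicotinic subunit of ganglion neurons, in all 16 and all 18. One of the 2 Ach1 cells of P31 female goes against its label in part: it held 0 counts of Slc18a3 and of Chat, 61 of Th, 63 of the noradrenaline transporter Slc6a2, 586 of Npy and 112 of Vip. Without it the fit called 435 genes in place of 390.

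**Figure D1:**
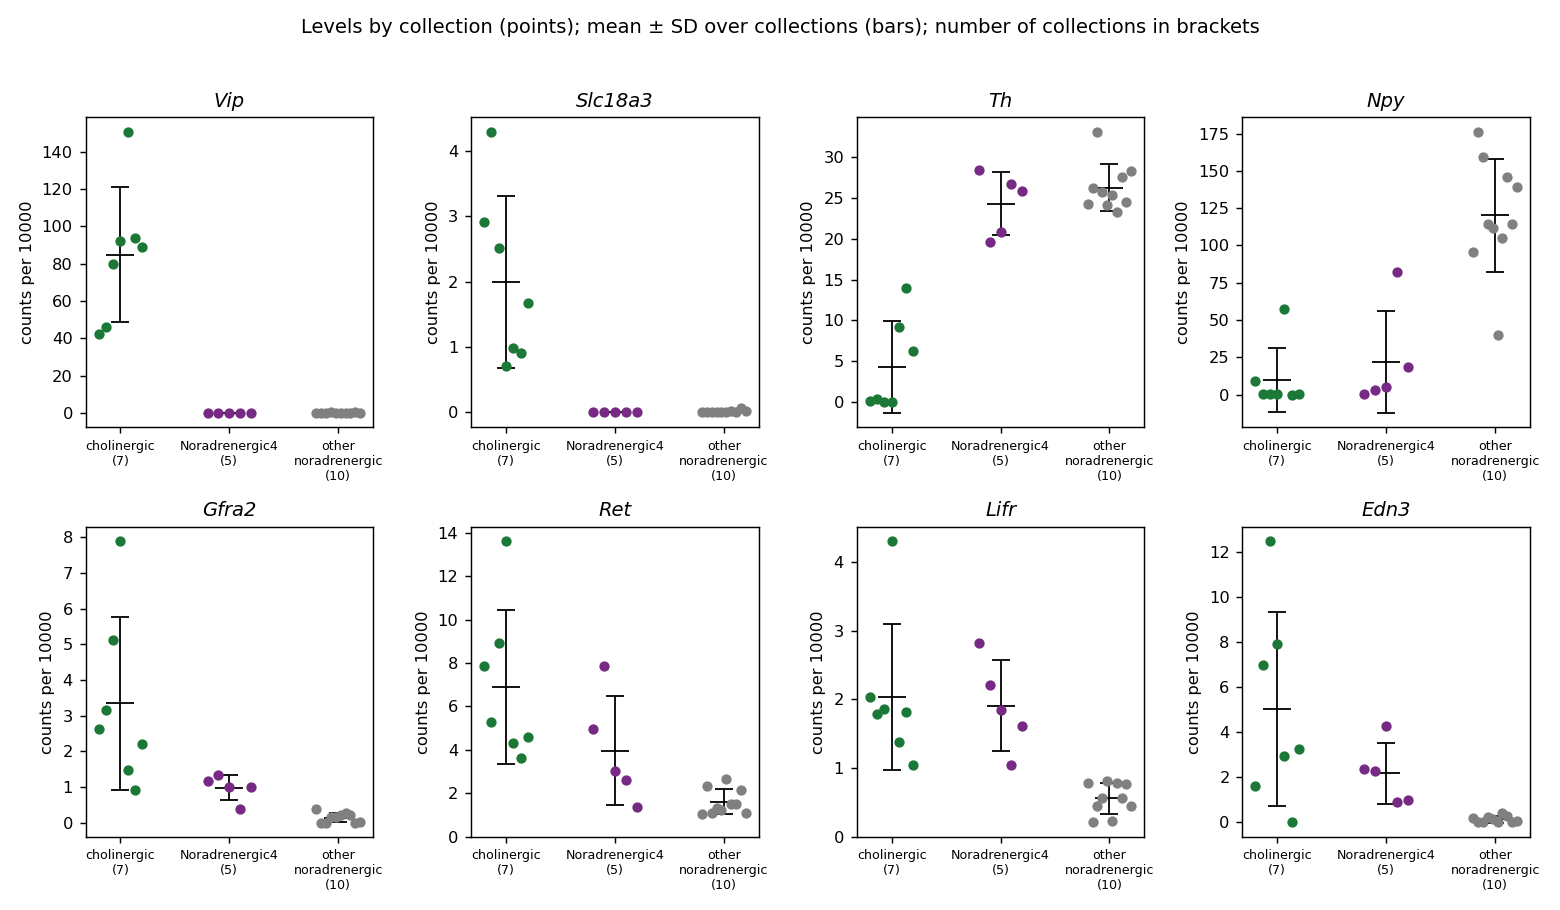
Counts per 10000 (vertical axes) of 8 genes in cholinergic cells (7 collections), Noradrenergic4 cells (5) and other noradrenergic cells (10); points are collections and bars the mean ± SD. Vip and Slc18a3 are near 0 outside cholinergic cells and Th is lower in them, while Gfra2, Ret, Lifr and Edn3 are higher in cholinergic and Noradrenergic4 cells than in most other noradrenergic collections.

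Between cholinergic and Noradrenergic4 cells 390 of 11555 genes tested (3.38%) passed an adjusted p of 0.05 by edgeR's quasi-likelihood test, 141 higher in cholinergic cells (1.22%) and 249 lower (2.15%). The log2 fold changes below are cholinergic over Noradrenergic4 unless said otherwise, with Ach1 and Ach2 weighted equally and a term for the collection, and are given ± SE. The median over all genes tested was -0.24, and with size factors by median of ratios it was -0.11, where the split was 184 higher and 193 lower. Of the 390 called genes 268 (68.7%) had the same direction in all 4 shared collections, against 13.5% of all genes tested. In 96 (24.6%) the levels of the 7 and 5 collections did not overlap, against 1.13% of all genes. The called genes were chosen on these same collections. That choice raises both shares, so they are a description and no independent support for the calls. Against the other noradrenergic identities, the same fit called 520 genes for cholinergic cells (4.5%), 249 higher (2.15%) and 271 lower (2.35%), and 145 for Noradrenergic4 cells (1.25%), 110 higher (0.952%) and 35 lower (0.303%). Those latter comparisons use the same control cells, so their values are given side by side and their likeness is not tested. The count between cholinergic and Noradrenergic4 cells was 230 without P38 male and 363 without P16 female. The chip identifiers begin with 1 of 2 numbers, 1772099 or 1772116. Chips with the same first number are called a lot here, although the labels do not say what that number stands for. In P33 female the cholinergic cell was on a chip of lot 1772116 and the Noradrenergic4 cells were on a chip of lot 1772099. In that shared collection kind of cell and lot cannot be told apart. Lot 1772099 held a single Ach2 cell, of P16 female, which carries the whole Ach2 weight in fits of that lot. Lot 1772116 held 12 cholinergic and 8 Noradrenergic4 cells and called 204 genes on its own, and lot 1772099, with 4 and 10 cells, called 26.

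Gfra2 was graded. Its level was 0.908, 2.62 and 7.90 in cholinergic collections and 1.18, 1.32, 1.01, 0.392 and 1.0 in Noradrenergic4 collections, against a mean of 0.142 ± 0.135 (SD, n = 10 collections) in other noradrenergic cells. Cholinergic and Noradrenergic4 levels overlapped, yet the cholinergic cells were higher in all 4 shared collections. Cholinergic cells exceeded Noradrenergic4 cells by 1.27 ± 0.33 on the log2 scale (adjusted p = 0.00548, edgeR), a call that was lost without P30 female (1.10). It was also lost with libraries of at least 2 cells (1.04) and in cells thinned to 10000 counts (1.04). The same held with only these kinds of cell in the fit (1.02) and for Ach2 alone (1.16). Within chip lot 1772116 the value was 1.24 and not called. Within lot 1772099, with a single Ach2 cell, it was -0.30, so the step from Noradrenergic4 to cholinergic cells had the opposite sign there. Against the other noradrenergic identities the log2 fold change was 3.66 ± 0.28 for cholinergic and 2.39 ± 0.34 for Noradrenergic4 cells, both called (adjusted p = 3.65e-36 and 3.15e-09). Of 9 tested members of the list of receptors and ligands of the GDNF family, Gfra2 was the 1 called between the kinds of cell. The share called over all genes tested was 3.38%. Gfra1, the co-receptor for GDNF itself, and the ligand neurturin (Nrtn) had 0 counts on both sides.

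Ret, the signalling receptor of the pair, did not pass between them. It stood at 3.63, 5.27 and 13.6 in cholinergic collections and at 4.95, 7.84, 3.02, 2.61 and 1.39 in Noradrenergic4 collections, which overlapped widely, with cholinergic cells higher in all 4 shared collections. The log2 fold change was 0.43 ± 0.26 (95% interval -0.08 to 0.94, adjusted p = 0.476, edgeR). In other noradrenergic cells the mean was 1.60 ± 0.578 (SD, n = 10), and Ret was called in both kinds against them, at 1.83 for cholinergic and 1.40 for Noradrenergic4 cells. Lifr was at 1.05, 1.82 and 4.31 in cholinergic and 2.83, 2.20, 1.85, 1.04 and 1.61 in Noradrenergic4 collections, with a log2 fold change between them of -0.35 ± 0.31 (95% interval -0.96 to 0.26, adjusted p = 0.671, edgeR). Cholinergic cells were higher in 1 and lower in 3 of the shared collections. Against the other noradrenergic identities Lifr was called at 1.26 and 1.61. Its cholinergic call was lost with libraries of at least 2 cells (1.07), in shared collections (1.16) and in cells thinned to 10000 counts (1.07). Within chip lot 1772099, with 4 cholinergic cells, the value was -2.77. In that lot the single Ach2 cell held 0 Lifr counts and carried the whole Ach2 weight, while the Ach1 cells held 6 to 14. The Noradrenergic4 call of Lifr was lost in thinned cells (1.12). None of the 16 tested genes of the list of LIF and CNTF receptor signalling was called between cholinergic and Noradrenergic4 cells, where the median was -0.03. The share called over all genes tested was 3.38%. Stat3, the transcription factor downstream of these receptors, reached 0.68 (adjusted p = 0.269, edgeR), the shared subunit Il6st held 10 and 8 counts and the CNTF receptor Cntfr 5 and 2, too few for a comparison, and Osmr held 1 and 0.

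By the rule for shared genes (called in the same direction in both kinds against the other noradrenergic identities, not called between them, and at 1 count per 10000 or more), 10 genes were higher in both and 7 lower in both. Higher in both, beside Ret and Lifr, were Edn3, which encodes the peptide endothelin 3, Spock1 (testican, a secreted proteoglycan), the zinc finger factor Casz1, Tmtc1, Pmp22, Ddah1, the adhesion molecule Alcam and Epb4.1l3, which links the membrane to actin. Edn3 had the largest differences. Its level was 0, 3.24 and 12.5 in cholinergic collections, where the single cell of P33 female held none, and 2.36, 2.29, 4.26, 0.914 and 1.0 in Noradrenergic4 collections, against 0.124 ± 0.142 in other noradrenergic cells (SD, n = 10). The kinds overlapped, at a log2 fold change between them of 1.12 ± 0.55 (95% interval -0.01 to 2.25, adjusted p = 0.377, edgeR), and Edn3 was called between them without P33 female (1.18). Against the other noradrenergic identities Edn3 stood at 4.73 for cholinergic and 3.62 for Noradrenergic4 cells. Within lot 1772099, with a single Ach2 cell, the cholinergic value of Edn3 was -0.85 and not called.

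The other shared genes differed less from the other noradrenergic identities. For Spock1 the log2 fold change was 1.63 in cholinergic and 1.81 in Noradrenergic4 cells, for Casz1 1.35 and 1.44, and for Tmtc1 1.29 and 1.86. Pmp22, a membrane protein abundant in Schwann cells, stood at 1.39 and 1.03, Ddah1, which breaks down an inhibitor of nitric oxide synthase, at 1.74 and 1.02, Alcam at 0.91 and 1.32, and Epb4.1l3 at 0.76 and 0.90. Leaving out 1 collection ended the cholinergic call of Tmtc1 for P29 male (0.96), of Alcam for P38 male (0.73) and of Epb4.1l3 for P29 male (0.65) and P30 female (0.59), and the Noradrenergic4 call of Ddah1 for P31 female (0.90) and P38 male (0.84) and of Epb4.1l3 for P11 female (0.79) and P30 female (0.80). The cholinergic call of Tmtc1 was also lost with libraries of at least 2 cells (0.74), in shared collections (0.81) and in thinned cells (0.82), that of Casz1 in shared collections (1.01) and in thinned cells (1.12), and that of Spock1 in thinned cells (1.10). In thinned cells Casz1 (1.37) and Tmtc1 (1.26) lost the Noradrenergic4 call too, and Spock1 lost it in shared collections (1.18). Of all 17 shared genes, 6 kept the Noradrenergic4 call in thinned cells, 7 in lot 1772116 and 5 in lot 1772099, without a change of sign. Ret lost it in lot 1772099 (1.14) and Pmp22 in lots 1772116 (1.11) and 1772099 (0.94). Within lot 1772099 all 17 shared genes lost the cholinergic call, and beside Edn3 and Lifr the sign changed for Tmtc1 (-0.28), Epb4.1l3 (-0.02) and Bub3 (0.26). The genes lower in both were the phospholipid scramblase Plscr1 (-1.90 and -2.05), the adaptor subunit Ap1s2 (-1.97 and -1.51), cyclin D1 (Ccnd1, -2.25 and -1.22), S100a1 (-2.13 and -1.03), Cystm1 (-0.90 and -0.87), the ephrin receptor Epha5 (-1.17 and -0.86) and the mitotic checkpoint gene Bub3 (-0.83 and -1.05). In Noradrenergic4 cells the calls of Cystm1, Epha5, Bub3 and S100a1 were lost under 13, 12, 13 and 16 of 24 other settings, and those of Plscr1 and Ccnd1 without P31 female (-1.47) and without P31 female (-1.22) in turn. In cholinergic cells the call of Bub3 was lost under 15 of 24. Between the kinds, S100a1 was called lower in cholinergic cells without P31 female (-3.04). The same held without the Ach1 cell that had no Slc18a3 (-2.77) and in lot 1772116 (-3.11), so its place among the shared genes depends on that cell. Ddah1 was called higher in cholinergic than in Noradrenergic4 cells in shared collections (1.03).

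Part of this shared set was also found in Noradrenergic5. Its pooled Gfra2 level, 0.92 counts per 10000, lay beside the 0.998 of Noradrenergic4, where Ach1 had 3.29, Ach2 2.58 and Noradrenergic1, 2 and 3 had 0.10, 0.17 and 0.065. A comparison of Noradrenergic5 with Noradrenergic1, 2 and 3, added after the levels had been seen, called Gfra2 (3.17 ± 0.38, adjusted p = 2.02e-13), Edn3 (4.02 ± 0.69, adjusted p = 0.000547), Tmtc1 (1.64 ± 0.29, adjusted p = 4.45e-06), Casz1 (1.30 ± 0.32, adjusted p = 0.00371) and Lifr (1.10 ± 0.31, adjusted p = 0.0217) by edgeR. Between Noradrenergic4 and Noradrenergic5 the log2 difference of Gfra2 was 0.02 (95% interval -0.73 to 0.76) and that of Lifr 0.78 (0.15 to 1.41), with adjusted p of 1 and 0.65 by edgeR. Ret (0.55, adjusted p = 0.468), Spock1 (0.35, 0.912), Pmp22 (0.30, 0.829), Ddah1 (0.28, 0.89), Alcam (-0.09, 0.974) and Epb4.1l3 (0.46, 0.57) did not pass in Noradrenergic5. Of these, Spock1 and Alcam were higher in Noradrenergic4 than in Noradrenergic5 by 1.55 and 1.39 (adjusted p = 0.041 and 0.00172, edgeR), while the same difference for Ret was 0.99 (adjusted p = 0.149). Of the genes lower in both kinds, Noradrenergic5 was also called lower in 6: Plscr1 (-1.95), Ap1s2 (-1.44), Ccnd1 (-2.18), Bub3 (-1.79), Epha5 (-1.24) and Cystm1 (-0.81, adjusted p = 0.0386, edgeR). S100a1 did not pass there (-0.84, adjusted p = 0.12). With Noradrenergic5 left out of the other identities, 251 genes were called for Noradrenergic4 in place of 145.

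**Figure D2:**
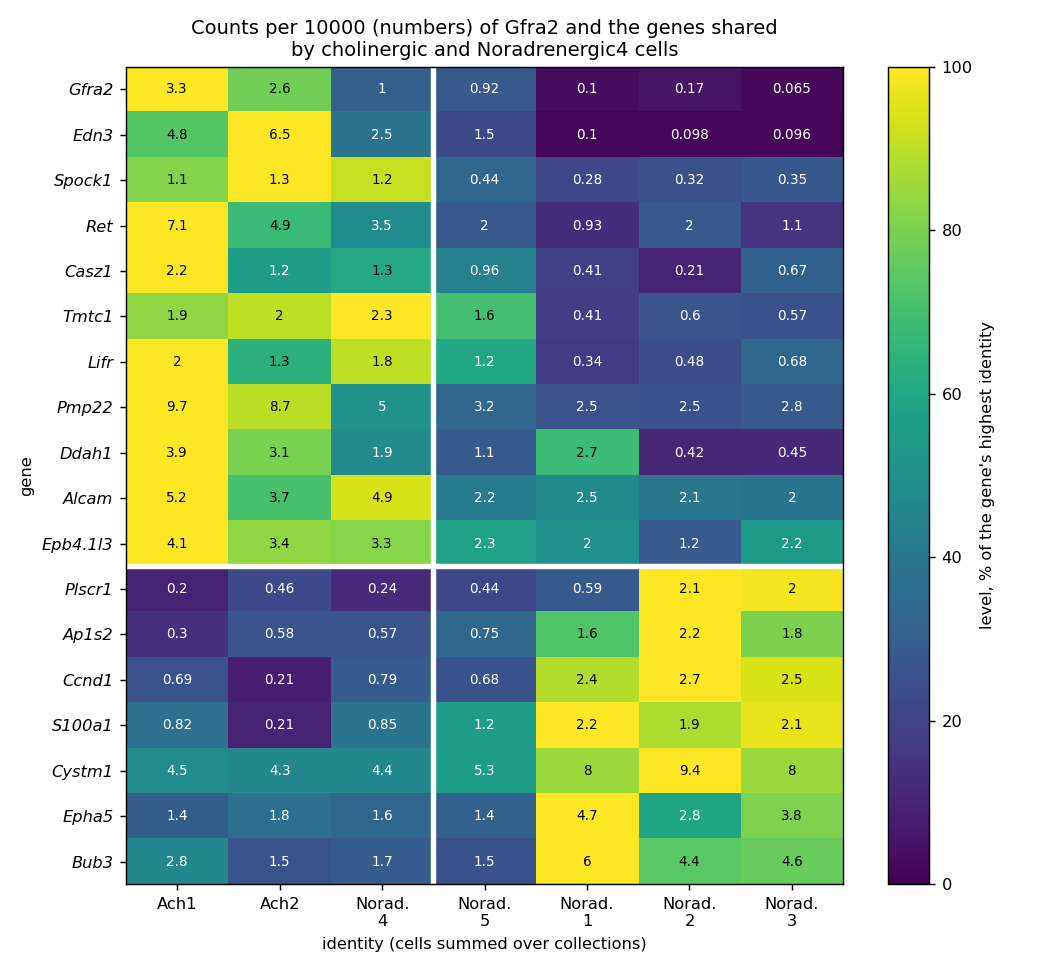
Counts per 10000 of Gfra2 and the shared genes (rows) in each identity (columns), all cells of an identity summed; the colour is the percent of the gene's highest identity, genes above the white line are higher in cholinergic and Noradrenergic4 cells and those below are lower. Gfra2, Edn3, Tmtc1 and Lifr are also raised in Noradrenergic5, with Gfra2 at 0.92 there and 0.998 in Noradrenergic4.

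Beside Gfra2, 2 genes were called in all 3 comparisons in the same order, highest in cholinergic cells and lowest in the other noradrenergic cells. Necab1, a neuronal calcium-binding protein, stood at 0.605, 1.95 and 3.49 in cholinergic and 1.65, 0.264, 0.965, 1.04 and 0.444 in Noradrenergic4 collections, 1.26 ± 0.35 apart on the log2 scale (adjusted p = 0.0166, edgeR). Pcdh17, a protocadherin, stood at 0.605, 2.09 and 7.90 and 0.942, 0.353, 0.241, 1.31 and 0.500, 1.66 ± 0.38 apart (adjusted p = 0.000943, edgeR). Levels overlapped for both genes. The call between cholinergic and Noradrenergic4 cells was lost for Necab1 without P29 male (0.89), P30 female (1.07), P31 female (1.32) and P38 male (1.21) and for Pcdh17 without P31 female (1.39) and P38 male (1.43). Necab1, too, was high in Noradrenergic5 (3.82 against Noradrenergic1, 2 and 3, adjusted p = 2.03e-12, edgeR).

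Of 14 tested catecholamine genes 9 were lower in cholinergic cells and none higher, and of 6 tested acetylcholine genes 3 were higher and none lower. Over all genes tested the shares were 2.15% lower and 1.22% higher. The choline transporter Slc5a7 stood at 3.66, 5.60 and 10.7 in cholinergic collections and at 0, 0.176, 0.0402, 0 and 0 in Noradrenergic4 collections, a 136-fold difference of summed counts (exact 95% interval 46.2 to 664). Chat, within which Slc18a3 lies in the annotation, held 24 and 0 counts, at least 9.73-fold apart, and its call was lost without P31 female (4.93) and P38 male (5.28). Acetylcholinesterase (Ache) stood at 0.688 to 7.18 and 1.21 to 3.06, with a difference of 0.03 (95% interval -0.53 to 0.59).

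Slc6a2, the noradrenaline transporter of the cell surface, separated the kinds furthest among the catecholamine genes. It stood at 1.02, 2.87 and 7.17 in cholinergic collections and 51.6, 58.3, 39.6, 33.9 and 43.2 in Noradrenergic4 collections, without overlap, a log2 fold change of -4.31 ± 0.30 (adjusted p = 3.21e-42, edgeR), and Noradrenergic4 cells were also above the other noradrenergic cells (0.82, adjusted p = 0.0435). Th stood at 0, 0.325 and 13.9 and 28.5, 19.7, 20.9, 26.8 and 25.9, again without overlap, a change of -4.07 ± 0.74 (adjusted p = 0.000726, edgeR). The cholinergic Th counts were uneven between cells: 4 of the 8 Ach1 cells held 33 to 61 counts and the other 4 held 0, while the 8 Ach2 cells held 0 to 3. Dbh was lower by a smaller step, 2.42 to 10.7 against 13.2 to 29.2 (-1.76), as were Ddc (-2.57), the vesicular transporter Slc18a2 (-3.67), the cofactor enzyme Gch1 (-1.65), the monoamine oxidases Maoa (-2.01) and Maob (-2.36), and Cyb561 (-1.52), which supplies electrons to Dbh. All 9 were lower in all 4 shared collections and none lost its call when 1 collection was left out.

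Peptides differed in both directions: of 25 tested genes of neuropeptides and their processing, 6 were higher in cholinergic cells and 7 lower. Over all genes tested the shares were 1.22% higher and 2.15% lower. Somatostatin (Sst) stood at 0, 6.79 and 14.1 in cholinergic collections and had 0 counts in Noradrenergic4 cells, at least 181-fold lower, and within the cholinergic cells it was higher in Ach2 than in Ach1 (the log2 difference Ach1 over Ach2 was -4.87, adjusted p = 1.19e-37, edgeR). Cartpt, the precursor of the CART peptide, ranged from 1.87 to 43.7 in cholinergic collections, highest in P30 and P31 female, and stood at 0.236, 0, 0.0804, 0.261 and 0 in Noradrenergic4 cells (6.82 ± 1.07, adjusted p = 0.000172, edgeR). The CGRP genes Calca and Calcb held 80 and 65 counts against 1 and 0, and both were at 0 in the single cholinergic cell of P33 female. Pam, which amidates peptides, was higher at 1.29. Its highest level, 27.3, came from the single cell of P30 male, and its call was lost without P31 female (1.05).

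Galanin (Gal) stood at 0, 0 and 0.688 in cholinergic collections and 5.65, 2.64, 11.1, 10.3 and 10.4 in Noradrenergic4 collections, without overlap (-5.30 ± 0.76, adjusted p = 1.13e-05, edgeR). The granin Scg2 was lower at -2.19, the prohormone convertase Pcsk2 at -1.86 and Adm with 1 against 35 counts. Smaller or sparser differences were those of Scg3 (-0.96), carboxypeptidase E (Cpe, -0.93) and Pthlh (0 against 11 counts). Calls were lost for Pcsk2 without P30 female (-1.16), for Adm without P38 male (-3.50), for Scg3 without P29 male (-0.92), P30 female (-0.63), P33 female (-0.93) and P38 male (-0.89), for Cpe without P11 female (-0.77), P29 male (-0.90), P30 female (-0.96) and P38 male (-0.79) and for Pthlh without P16 female (-4.58), P30 female (-4.41) and P38 male (-4.71). Neuropeptide Y, the main peptide of noradrenergic sympathetic neurons, was not called between the kinds. Npy stood at 0, 0.744 and 57.6 in cholinergic and 0.471, 3.35, 5.43, 82.0 and 18.6 in Noradrenergic4 collections (-1.49 ± 1.35, 95% interval -4.27 to 1.28, adjusted p = 0.682, edgeR), against 120 ± 38.1 in other noradrenergic cells (SD, n = 10). The highest cholinergic value came from P31 female, where the Ach1 cell without Slc18a3 held all 586 counts, and without that collection Npy was called lower in cholinergic cells (-5.37).

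Sequence upstream of the start site was read for the called genes named here, to see which carry the full cyclic AMP response element TGACGTCA, the palindrome bound by CREB. RefSeq promoters (GRCm38.p6) were at hand for 80 of 107 such genes. Counted by gene, 6 of the 80 (7.5%) held it in the 250 bases before the start, against 508 of 32851 promoters (1.55%), a share counted by promoter and so in another unit. They include genes higher and genes lower in cholinergic cells, and are shown for those of peptides and transmitters and for Pdlim3, with the element in capitals and 20 bases on either side, 5′ to 3′ on the gene's strand:
Sst (chr16:23890865-23890912, minus strand): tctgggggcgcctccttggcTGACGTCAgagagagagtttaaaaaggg
Pdlim3 (chr8:45885419-45885466, plus strand): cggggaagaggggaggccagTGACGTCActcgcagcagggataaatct
Cartpt (chr13:99900768-99900815, minus strand): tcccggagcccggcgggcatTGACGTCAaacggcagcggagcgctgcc
Th (chr7:142900013-142900060, minus strand): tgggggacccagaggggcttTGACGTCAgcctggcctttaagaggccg
Scg2 (chr1:79440067-79440114, minus strand): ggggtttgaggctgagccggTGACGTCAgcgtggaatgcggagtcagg
Sst, Pdlim3 and Cartpt were higher in cholinergic cells and Th and Scg2 lower, so the element was present on both sides of the comparison. The sixth was Uqcrfs1. A match describes the letters in this window and is no measurement of binding.

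Beyond transmitters, 3 of 9 tested genes of the neurotrophin receptor list were called, all lower in cholinergic cells (median -0.64). Over all genes tested 3.38% were called and 2.15% were lower. Ngfr, the low-affinity neurotrophin receptor p75, was lower at -1.43 ± 0.28 (adjusted p = 3.09e-05, edgeR), with overlap and in 3 of 4 shared collections, and was raised in Noradrenergic4 against the other noradrenergic identities (1.01, adjusted p = 0.00112). Coro1a, an actin regulator, was lower at -1.47, a call lost without P29 male (-1.30). Ntrk2, the receptor for BDNF, had 0.628 to 3.59 in cholinergic and 0 to 0.653 in Noradrenergic4 collections (1.57, adjusted p = 0.0606, edgeR) and passed the threshold only without P29 male (1.79) among the 10 fits that left out a collection. Of 16 tested genes of BMP and activin signalling none was called.

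Of 43 tested genes on the list of transcription factors, 5 were higher and 7 lower in cholinergic cells. Over all genes tested the shares were 1.22% higher and 2.15% lower. Insm2, a zinc finger repressor, had 0 counts in cholinergic cells and stood at 0.707, 0.617, 0.483, 0.522 and 1.11 in Noradrenergic4 collections, at least 12.6-fold higher. Tbx20, a T-box factor, stood at 0, 0 and 0.209 and 0.471, 1.15, 0.684, 0.914 and 1.72 (-3.59 ± 0.57, adjusted p = 1.01e-07, edgeR), and its levels did not overlap. Gata2 was lower at -1.71, Isl1 at -0.99, Sox4 at -1.28, and Hmx1, a homeobox factor of noradrenergic fate, held 2 against 22 counts. The seventh, Islr2, is a membrane protein and no transcription factor although it was on the list. It held 1 against 44 counts and was higher in Noradrenergic4 than in the mean of the other noradrenergic identities (2.32, adjusted p = 0.00193, edgeR). Noradrenergic5 was raised as well (3.30 against Noradrenergic1, 2 and 3, adjusted p = 2.29e-06), with a difference between Noradrenergic4 and Noradrenergic5 of -0.16 (adjusted p = 0.998).

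Higher in cholinergic cells were Runx1 (29 counts against 1), Bnc2 (21 against 0), Hoxc8 (1.77), Sox11 (1.33) and Atf3 (1.74), a factor induced by injury and stress. Of the core sympathetic factors, these did not pass: Phox2a (-0.63), Hand1 (-0.79), Hand2 (-0.85, adjusted p = 0.0672) and Gata3 (-1.14, adjusted p = 0.0581, edgeR), all with negative values, against a median of -0.24 over all genes. Hand2 was called without P30 female (-1.07) and P31 female (-1.0) and Gata3 without P31 female (-1.35), P34 female (-1.17) and P38 male (-1.59). Calls were lost for Isl1 without P29 male (-1.03), P30 female (-0.83) and P38 male (-0.87), Sox4 without P29 male (-1.04), P30 female (-1.05) and P33 female (-1.19), Hmx1 without P30 female (-3.66), Runx1 without P29 male (3.24) and P31 female (3.45), Bnc2 without P31 female (4.95), Hoxc8 without P30 female (1.39) and P31 female (0.79), Sox11 without P29 male (0.47) and P38 male (1.06) and Atf3 without P29 male (1.37). Insm2, Tbx20, Gata2 and Islr2 kept theirs in all 10 such fits.

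Both serotonin-gated channel subunits named were higher in cholinergic cells. Htr3a stood at 8.89, 15.4 and 21.2 in cholinergic and 0.236, 0.617, 1.21, 1.04 and 1.61 in Noradrenergic4 collections, without overlap (3.55 ± 0.63, adjusted p = 0.00052, edgeR), and Htr3b at 1.78, 2.98 and 4.31 and 0, 0.617, 0.201, 0.783 and 0.278 (2.59 ± 0.39, adjusted p = 1.28e-08), also without overlap. Htr3b in Noradrenergic4 was below the other noradrenergic identities as well (-1.51, adjusted p = 0.00497). Agtr1a, the angiotensin II receptor, went the other way at 0, 0.0811 and 0.105 and 0.471, 2.03, 2.05, 1.83 and 1.89 (-4.73 ± 0.53, adjusted p = 3.12e-16, edgeR). The kappa opioid receptor Oprk1 had 0 against 14 counts, a call lost without P29 male (-5.20) and P30 female (-4.64). These 4 were the called genes among 21 tested receptors for peptides, hormones and serotonin, against 3.38% called of all genes tested.

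Among nicotinic receptor genes 2 of 9 were called, both lower, against 3.38% called and 2.15% lower of all genes tested. Tmem35, the chaperone (NACHO) needed to assemble nicotinic receptors, stood at 0, 0.162 and 0.314 in cholinergic and 5.89, 2.03, 2.41, 1.83 and 2.17 in Noradrenergic4 collections, without overlap (-5.74 ± 0.61, adjusted p = 1.39e-17, edgeR). The subunit Chrnb4 was lower at -1.09, a call lost without P29 male (-0.97), P30 female (-0.95) and P31 female (-1.05) and moved to -1.71 without P38 male, and Chrna3 stood at 2.75 to 5.74 and 4.18 to 7.33 (-0.78, adjusted p = 0.089, edgeR), called without P30 male (-0.78). None of 6 muscarinic and adrenergic receptors was called.

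Glutamate receptor subunits changed in both directions. The AMPA subunit Gria1 stood at 0.303, 3.00 and 7.72 in cholinergic and 0.236, 0.617, 0.121, 2.35 and 0.111 in Noradrenergic4 collections (2.40 ± 0.37, adjusted p = 6.24e-08, edgeR), while Gria2, the subunit that keeps AMPA receptors from passing calcium, stood at 0, 0.583 and 1.44 and 1.88, 4.67, 2.37, 2.09 and 0.889 (-2.29 ± 0.35, adjusted p = 2.41e-08). Both overlapped in level. The NMDA subunit Grin3a held 47 against 3 counts and did not overlap. The glycine receptor subunit Glrb was lower (-1.59), a call lost without P30 female (-1.37), P31 female (-1.56) and P38 male (-1.76). Of 18 tested GABA, glycine and glutamate receptor genes, 2 were called higher and 3 lower, against 1.22% and 2.15% of all genes tested.

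Of 25 tested sodium, calcium and HCN channel genes 1 was called, the calcium channel subunit Cacna2d3 (-2.47 ± 0.55, adjusted p = 0.000726, edgeR). Of 39 potassium channel genes 3 were called. Over all genes tested 3.38% were called. The channel partner Kcnip4 was lower at -2.40 ± 0.47 (adjusted p = 5.19e-05), and at -4.26 without P29 male. It differed between Ach1 (-0.64 against Noradrenergic4) and Ach2 (-4.16, adjusted p of the difference = 0.0213, edgeR). The sodium-activated channel Kcnt1 was lower (-1.51) and the leak channel Kcnk3 higher (27 against 2 counts), calls lost without P29 male (-1.53), P30 female (-1.45), P31 female (-1.60) and P38 male (-1.48) and without P29 male (3.04), P30 female (2.53), P31 female (3.33) and P38 male (2.70) in turn.

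Of 54 tested cell adhesion genes, 4 were higher and 9 lower (median -0.48), against 1.22% and 2.15% of all genes tested (median -0.24). The contactins, glycosylphosphatidylinositol-anchored proteins of axons, parted ways. Cntn2 stood at 0.303, 0.982 and 11.5 in cholinergic and 0, 0, 0.0804, 0 and 0.0556 in Noradrenergic4 collections (79 against 3 counts, 32-fold, exact 95% interval 10.6 to 159), and Cntn1 at 0, 0 and 0.688 and 0.707, 1.67, 1.53, 1.57 and 2.17 (-3.21 ± 0.44, adjusted p = 1.71e-10, edgeR). Neither overlapped. Thy1, another anchored surface protein, was lower at -3.05 ± 0.44 (adjusted p = 3.84e-07), and Cadm1, a synaptic adhesion protein, at -2.23 ± 0.29 (adjusted p = 2.16e-11). Nlgn1, a neuroligin, held 26 counts in cholinergic and 0 in Noradrenergic4 cells.

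Thy1 (1.68), the integrin Itga6 (2.34) and the teneurin Tenm4 (1.81) were called higher in Noradrenergic4 against the mean of the other noradrenergic identities, and in cholinergic cells they were lower than in Noradrenergic4 at -3.05, -2.10 and -2.36. Tenm4 was called in Noradrenergic5 too (1.51 against Noradrenergic1, 2 and 3, adjusted p = 0.00117), and the difference between Noradrenergic4 and Noradrenergic5 was 0.68 for Tenm4 (adjusted p = 0.769), 0.94 for Thy1 (adjusted p = 0.638) and 1.77 for Itga6 (adjusted p = 0.00105, edgeR). The rest of the list comprised Chl1 (-1.43), Ncam1 (-0.94), the protocadherin Pcdh9 (-1.91) and the integrin Itga1 (2 against 28 counts), lower, and Pcdh10 (1.37) and Pcdh17, higher. Calls were lost for Ncam1 without P29 male (-0.92) and P30 female (-0.61) and for Pcdh10 without P16 female (1.17), P31 female (1.15), P33 female (1.25) and P38 male (1.5). Axon guidance genes were called in 1 direction only, 4 lower of 33 tested (median -0.78). The shares over all genes tested were 2.15% lower and 1.22% higher, at a median of -0.24. The plexin Plxnd1 had 0 against 18 counts, the secreted semaphorin Sema3c stood at 0 to 0.605 and 0.278 to 1.06 (-3.23 ± 0.69, adjusted p = 0.000324, edgeR), and Plxnc1 (-1.80) and the netrin G Ntng1 (-1.90) lost their calls without P16 female (-1.73), P30 female (-0.95) and P38 male (-1.67) and without P30 female (-1.67) in turn.

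Of 24 tested cytoskeleton genes, 2 were called higher in cholinergic cells, Nefl and Nefm, and 3 lower. Over all genes tested the shares were 1.22% higher and 2.15% lower. The neurofilament light chain Nefl stood at 5.45, 7.90 and 12.4 in cholinergic and 2.83, 1.5, 3.10, 3.79 and 2.06 in Noradrenergic4 collections (1.31 ± 0.28, adjusted p = 0.000248, edgeR), and the medium chain Nefm at 3.03, 6.46 and 9.76 and 1.88, 2.20, 2.17, 2.35 and 2.44 (1.57 ± 0.28, adjusted p = 5.55e-06). Neither level overlapped. The whole of Nefl lies within the annotated interval of Nefm, on the opposite strand, so reads may be shared. Whether the counting used the strand is not given in the sources used here. Nefm in Noradrenergic4 was also under the other noradrenergic identities (-0.96, adjusted p = 0.0148). The growth cone proteins Stmn1 (-1.15) and Dpysl2 (-1.08) were lower in cholinergic cells, and their calls were lost without P29 male (-1.04) and P38 male (-0.99) and without P38 male (-1.02) in turn.

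Of 33 tested genes of synaptic vesicle release 6 were lower in cholinergic cells and none higher (median -0.69). Over all genes tested 2.15% were called lower and 1.22% higher, at a median of -0.24. The complexin Cplx2, which holds release until calcium enters, stood at 0, 1.78 and 4.32 and 7.30, 10.8, 10.2, 8.48 and 8.44, without overlap (-2.32 ± 0.28, adjusted p = 5.58e-14, edgeR). The calcium sensors Syt1 (-1.47 ± 0.27, adjusted p = 6.14e-06) and Syt9 (-2.86 ± 0.47, adjusted p = 3.84e-07) and the vesicle GTPase Rab3d (-1.46 ± 0.30, adjusted p = 0.00016) were lower in every fit that left out a collection. Rab3b (-1.28) and Rph3a (-1.69) were lower too, calls lost without P38 male (-1.01) and P38 male (-1.64) in turn. Of 17 calcium-binding genes 3 were higher, Necab1, Vsnl1 (1.31) and Calb1 (7 against 0 counts), and 1 lower, Hpcal4 (-1.18). The calls of Vsnl1, Calb1 and Hpcal4 were each lost on leaving out 1 collection, without P11 female (1.28), P16 female (1.25), P29 male (1.22), P31 female (1.48), P33 female (1.25) and P38 male (1.20), without P30 female (5.13) and without P30 female (-1.01), P31 female (-1.16) and P38 male (-1.29). Of 41 respiratory chain genes 1 was higher (Atp5g1, 0.88) and 1 lower (Uqcrfs1, -1.02), both calls lost in at least 5 of the 10 such fits, among them those without P38 male (0.78 and -1.18).

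**Figure D3:**
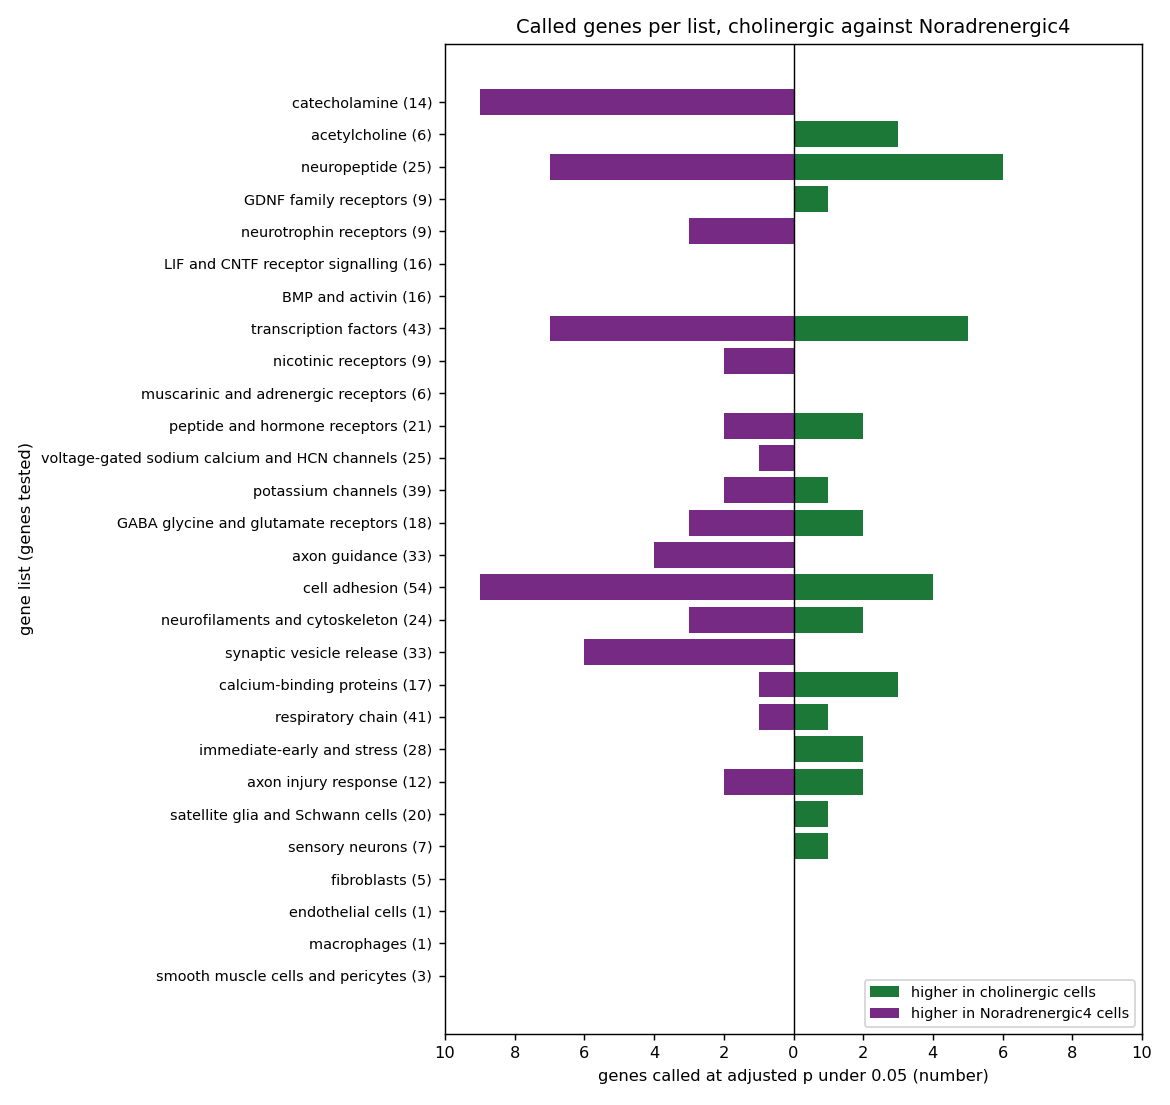
Number of genes called higher (right) and lower (left) in cholinergic than in Noradrenergic4 cells, by gene list (rows, genes tested in brackets). Catecholamine and acetylcholine genes part as their lists are named, axon guidance and vesicle release genes are called lower only, and cell adhesion has 13 calls. Over all genes tested 249 were called lower and 141 higher.

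Apart from transmitter genes, the rule for separating genes (called, the same direction in all 4 shared collections, and 1 count per 10000 or more in the higher kind) was met by 59 genes higher and 91 lower in cholinergic cells, and 12 of the former and 11 of the latter, taken from those with the largest log2 fold changes, are described. Cnr1, the cannabinoid receptor CB1, stood at 0, 1.14 and 2.79 in cholinergic collections and had 0 counts in Noradrenergic4 cells, at least 33.2-fold lower, and Noradrenergic4 was below the other noradrenergic identities as well (adjusted p = 0.00193, edgeR). Rbfox3, the neuronal splicing factor NeuN, stood at 0.303, 1.02 and 1.46 and again had 0 counts, at least 23.1-fold lower. Pdlim3, an actinin-binding protein, was at 0, 1.95 and 5.25 with 119 against 1 count (145-fold, exact 95% interval 25.5 to 5764). Pde1a, a calcium-dependent phosphodiesterase, held 89 against 1, Spats2l 60 against 1 and Fam122b 94 against 1. Rbfox3, Pde1a and Spats2l had a count in every cholinergic collection and did not overlap, while Cnr1, Pdlim3 and Fam122b were at 0 in the single cholinergic cell of P30 male.

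The next genes had a few counts in Noradrenergic4 cells. C1qtnf7, a secreted protein of the C1q family, stood at 0.0982, 1.44 and 2.14 in cholinergic and 0, 0, 0, 0.522 and 0 in Noradrenergic4 collections (4.39 ± 0.89, adjusted p = 0.000589, edgeR). All 4 Noradrenergic4 counts came from P33 female, without which the value was 7.89. Luzp2 stood at 0.651, 1.38 and 4.54 and 0, 0, 0, 0.392 and 0.0556 (3.93 ± 0.66). The copine Cpne8, a calcium-dependent membrane binder, stood at 1.44, 2.33 and 5.75 and 0, 0.264, 0, 0.522 and 0.111 (3.88 ± 0.45). Noradrenergic4 stood at -2.97 against the other noradrenergic identities (adjusted p = 2.14e-08, edgeR), whose mean level was 2.12. Noradrenergic5 was low for Cpne8 as well (-2.65 against Noradrenergic1, 2 and 3, adjusted p = 3.41e-10), with a difference between Noradrenergic4 and Noradrenergic5 of -0.98 (adjusted p = 0.898). Chn2, a GTPase activator for Rac, stood at 0.982, 1.75 and 3.59 and 0, 0, 0.161, 0 and 0.167 (3.63 ± 0.56). Luzp2, Cpne8 and Chn2 did not overlap. Cntn2 and Htr3a, given above, complete the 12.

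**Figure D4:**
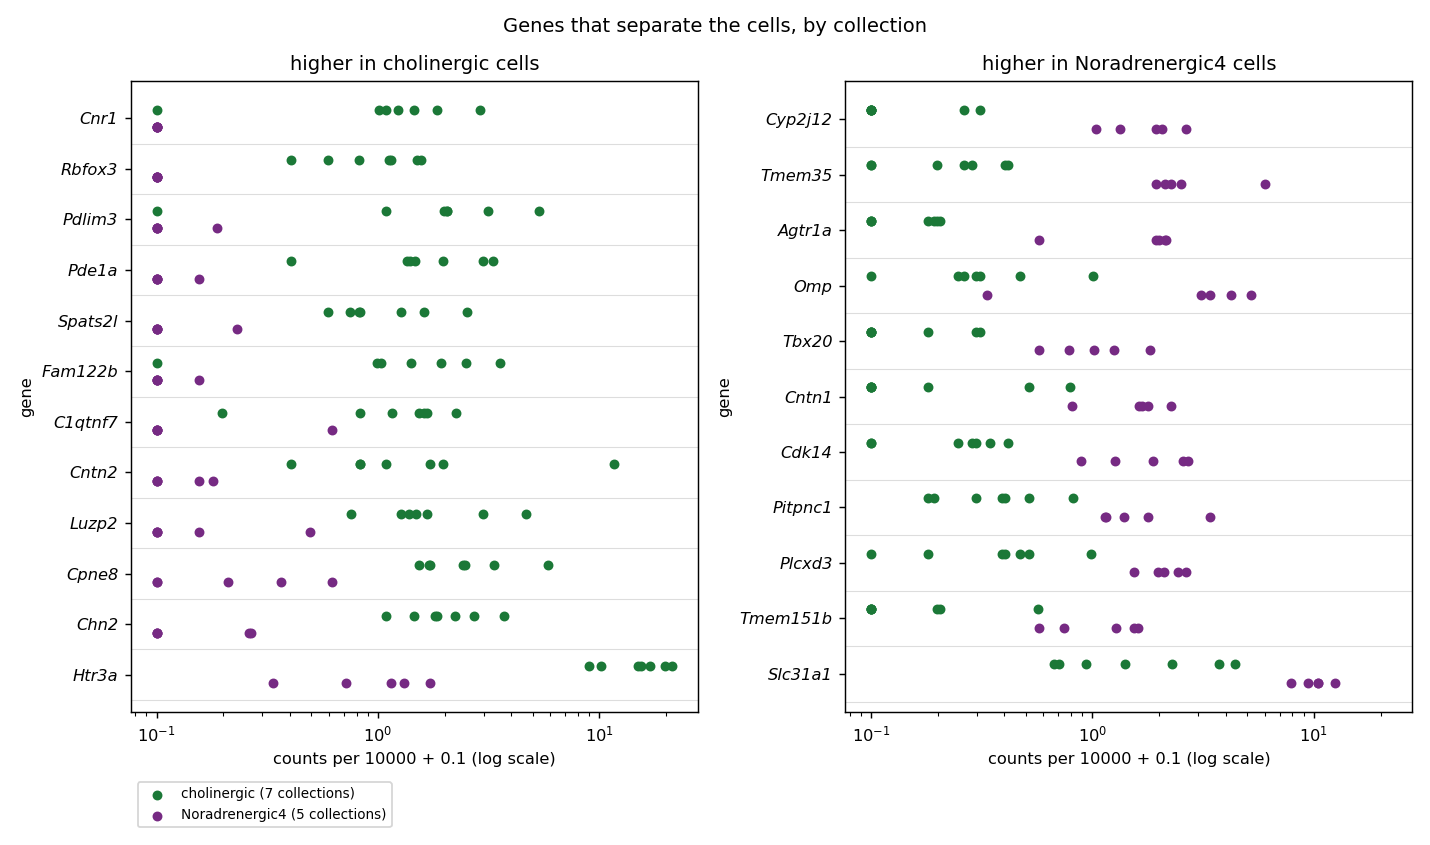
Counts per 10000 plus 0.1 on a log axis for 12 genes higher and 11 lower in cholinergic than in Noradrenergic4 cells, each point 1 collection. Zero counts sit at 0.1, and the kinds overlap in Cnr1, Pdlim3, Fam122b, C1qtnf7 and Omp.

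Lower in cholinergic cells was first Cyp2j12, a cytochrome P450 of a family of near-identical genes whose reads the counting may have split. It stood at 0, 0 and 0.209 in cholinergic and 0.942, 1.23, 2.53, 1.96 and 1.83 in Noradrenergic4 collections (-5.85 ± 0.69, adjusted p = 1.24e-14, edgeR), and Noradrenergic4 exceeded the mean of the other noradrenergic identities by 3.19. Noradrenergic5 was high too (4.65 against Noradrenergic1, 2 and 3, adjusted p = 3.62e-34), and the value of Noradrenergic4 against Noradrenergic5 was -0.30 (adjusted p = 0.973). Omp, the olfactory marker protein, which lies within Capn5 on the same strand so that reads may be shared, stood at 0, 0.196 and 0.908 and 0.236, 5.11, 3.30, 3.00 and 4.11 (-3.77 ± 0.39) and was also raised in Noradrenergic4 against the others (1.28, adjusted p = 7.81e-06), as it was in Noradrenergic5 against Noradrenergic1, 2 and 3 (1.26, adjusted p = 7.57e-05, edgeR). It overlapped, since the single Noradrenergic4 cell of P11 female held 1 count. Slc31a1, the copper importer, stood at 0.568, 1.30 and 4.31 and 7.77, 12.3, 10.4, 9.27 and 10.3 (-2.82 ± 0.30, adjusted p = 6.34e-18, edgeR) and did not overlap. The kinase Cdk14 (0, 0.186 and 0.314 against 2.59, 2.47, 1.17, 0.783 and 1.78, -3.20 ± 0.45) and the phosphatidylinositol transfer protein Pitpnc1 (0.0811, 0.291 and 0.718 against 3.30, 1.67, 1.29, 1.04 and 1.06, -3.01 ± 0.45) were lower without overlap. So were Plcxd3 (0 to 0.884 against 1.44 to 2.56, -2.93 ± 0.43) and Tmem151b (0 to 0.465 against 0.471 to 1.5, -2.84 ± 0.54). Tmem35, Agtr1a, Tbx20 and Cntn1, given above, complete this set. All 23 genes kept direction and call in each of the 10 fits that left out a collection. The rule that chose them favours this outcome. In thinned cells the call was lost for Rbfox3, Pde1a, Fam122b, Luzp2, Chn2, Cntn2 and Tmem151b. Fam122b also lost it in lot 1772116 (3.91) and for Ach2 alone, and Pdlim3 with DESeq2 (5.99). C1qtnf7 lost it without the replicate block (3.59), with libraries of at least 2 cells (3.03) and for Ach1 alone (2.72).

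Transcripts of satellite glia, which wrap these neurons, and of the response to dissociation ran higher beside the cholinergic cells. The summed level of 24 glial genes was 24.5 to 84.0 counts per 10000 (median 34.3) over the cholinergic collections and 15.6 to 36.1 (median 23.7) over the Noradrenergic4 collections, higher in 3 of the 4 shared ones, with 1 and 2 of the genes at 0. Of 20 tested glial genes, 1 was called, Sostdc1 (2.02), lost without P11 female (1.84), P16 female (1.78), P30 female (1.76), P31 female (1.47) and P33 female (2.18). The share called over all genes tested was 3.38%. The defining marker Sox10 held 3 and 6 counts and Fabp7 291 and 148. With the glial level as a covariate 371 genes were called. Pmp22, among the shared genes, is on the glial list, and stood at 4.52 to 18.7 and 3.94 to 8.24. The 30 immediate-early and stress genes summed to 14.5 to 61.7 (median 34.2) and 12.0 to 22.9 (median 18.3), also higher in 3 of 4, with 2 of 28 called, Ier3 (1.33) and Atf3. Their part in the differences was not tested beyond that covariate. Of the 12 tested genes of the axon injury response, Atf3 and Sox11 were higher and Gal and Ecel1 (3 against 33 counts) lower.

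Most defining markers of other cell types had few or no counts on both sides. The exception was Dcn, a fibroblast gene, with 44 counts in 2 cholinergic cells and 5 in 2 Noradrenergic4 cells, and its part in the results was not tested. The sensory neuron genes Prdm12, Pou4f1, Slc17a6 and Tac1 had 0 counts in all 34 cells, as had Lum, Cldn5, C1qa and Csf1r of fibroblasts, endothelium and macrophages. Runx1, counted above, was the 1 called of 7 tested on the sensory list, whose summed level was 2.77 to 6.46 in cholinergic and 0.942 to 5.48 in Noradrenergic4 collections. None of the tested genes of fibroblasts (5), endothelium (1), macrophages (1) or smooth muscle (3) was called, and those of red blood cells did not pass the filter on low counts.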

How the data were processed

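Single sympathetic neurons were sequenced, and 1 table of whole-number counts per gene and cell was deposited by the authors (16892 genes, 298 cells, all columns matched to a sample). The genome build was mm10, per the submitters' processing notes. The aligner, the counting tool, its use of strand and doublet removal are not given in the sources used here, and no doublet caller was run. Counts were summed per identity and collection (8 identities, 213 cells), and genes reaching 20 counts over all libraries, and present in 3 or more of them, were tested with edgeR 4.0.16 (R 4.3.3), TMM scaling and the quasi-likelihood test, with terms for identity and collection and Benjamini-Hochberg adjustment over all genes tested. Calls are genes whose adjusted p was below 0.05. Each SE is the log2 fold change divided by the root of the test's F, so it restates the test. Exact intervals use SciPy 1.17.1 and, like the limits of 3 counts, cover counting error only.

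The collection term is a replicate block. It was checked on libraries of other noradrenergic identities. Over 6615 genes, deviations correlated at 0.138 to 0.152 in 4 library pairs that had a collection in common. In 20 pairs without a common collection the correlation averaged -0.0293. Whether cholinergic and Noradrenergic4 libraries pair by collection was not tested. The labels name no animals, so p-values do not measure the spread between animals. They measure the spread between libraries of all 8 identities that remains after the terms for identity and collection. Ach1 and Ach2 cells of the same collection entered as separate libraries.

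Members and gene lists were chosen with earlier results of these data known. Named genes are the markers with Lifr, the 12 separating and up to 10 shared genes with the largest changes in each direction, and called or defining members of the lists. A few genes that the rule names were tested and counted but are not reported here. DESeq2 1.42.0, other scalings, filters, blocks, chip lots, thinning to 10000 counts and leaving out collections were alternatives.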

Additional observations from a re-analysis of the deposited data

Results flagged for a closer look

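Of 258 groups of collections examined (1 gene in 1 kind of cell), 63 had a highest or lowest collection set apart from the rest by Dixon's criterion. Chance gives about 1 in 20 for normally distributed values, a rate that does not hold for groups in which all other collections are at 0 or for libraries of 1 cell, so the number is not read against it. Values are counts per 10000. In the single cholinergic cell of P30 male these were Pam 27.3, Cpe 4.31, Lifr 4.31, Il6st 2.15, Cntfr 0.718, Casz1 8.62, Tmtc1 5.74, Alcam 16.5, Pcdh17 7.90, Gata2 2.15, Phox2a 2.87, Cacna2d3 0.718, Kcnk3 2.87, Cntn2 11.5, Tenm4 3.59, Syt1 40.9 and Atp5g1 0.718. In the single cholinergic cell of P33 female these were Dbh 2.42, Hmx1 0.303, Sema3c 0.605, Calb1 1.21, Cpne8 5.75 and Omp 0.908. In the cholinergic cells of P31 female these were Slc6a2 7.17, Maob 2.65, Npy 57.6, Gal 0.688 and S100a1 2.36. In the cholinergic cells of P30 female these were Calca 4.19, Dpysl2 9.49, Rph3a 1.02 and Tmem151b 0.465. Others in cholinergic cells were Adm 0.146 in P16 female, Osmr 0.0811 in P29 male, Islr2 0.105 in P38 male and Ecel1 0.314 in P38 male. In the single Noradrenergic4 cell of P11 female these were Gch1 7.07, S100a1 0, Coro1a 4.95, Gata3 6.83, Tmem35 5.89, Agtr1a 0.471, Pcdh10 1.41, Uqcrfs1 5.89, Ecel1 3.06 and Pitpnc1 3.30. In the Noradrenergic4 cells of P33 female these were Npy 82.0, Plscr1 0.914, Bub3 4.31, Gria1 2.35, Spats2l 0.131, C1qtnf7 0.522 and Luzp2 0.392. Others in Noradrenergic4 cells were Slc5a7 0.176 in P30 female, Calca 0.0402 in P31 female, Adm 1.39 in P38 male, Cntfr 0.111 in P38 male, Runx1 0.0556 in P38 male, Plxnc1 1.76 in P30 female, Tenm4 3.53 in P30 female, Pdlim3 0.0881 in P30 female, Pde1a 0.0556 in P38 male and Fam122b 0.0556 in P38 male.

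The fold changes of Ach1 and Ach2 against Noradrenergic4 differed in 6 of the named genes by edgeR's test of Ach1 against Ach2. Slc5a7 was higher in Ach1 by 1.88 on the log2 scale (adjusted p = 0.000958). Sst was lower in Ach1, with a difference of -4.87 on the log2 scale (adjusted p = 1.19e-37). Atf3 was at 0.90 in Ach1 and 2.58 in Ach2, a difference of -1.68 on the log2 scale (adjusted p = 0.0208). Kcnip4 was at -0.64 in Ach1 and -4.16 in Ach2, a difference of 3.52 on the log2 scale (adjusted p = 0.0213). Fam122b was higher in Ach1 by 3.75 on the log2 scale (adjusted p = 7.12e-06). C1qtnf7 was at 2.72 in Ach1 and 6.06 in Ach2, a difference of -3.34 on the log2 scale (adjusted p = 0.0223). For Slc5a7, Sst and Fam122b only the difference is given, since the Noradrenergic4 cells held 3, 0 and 1 counts.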

How the results depend on the processing

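Between cholinergic and Noradrenergic4 cells the 390 calls became 229 with libraries of at least 2 cells, 113 with cells thinned to 10000 counts, 169 with only these kinds of cell in the fit, 227 for Ach1 alone and 237 for Ach2 alone, and 204 and 26 within chip lots 1772116 and 1772099. The 520 calls of cholinergic against the other noradrenergic identities became 265 with libraries of at least 2 cells, 280 in shared collections, 230 thinned and 30 in lot 1772099. The 145 of Noradrenergic4 became 54 thinned, 65 and 41 in lots 1772116 and 1772099, and 251 with Noradrenergic5 left out (148 of them higher, against 110 of 145), an alternative chosen after seeing the data. Leaving out 1 collection gave 230 (P38 male) to 401 for the first comparison, 332 (P29 male) to 551 for the second and 87 (P31 female) to 152 for the third, with 96 without P38 male. Without the replicate block the counts were 427, 576 and 120. Size factors by median of ratios split the first as 184 higher and 193 lower in place of 141 and 249, and the second as 342 and 207 in place of 249 and 271, and DESeq2 split them as 97 and 335 and as 186 and 403. The cause was not tested.

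Of 107 called genes named here, 69 kept their call in all 10 fits that left out a collection. Calls were lost by 6 of them with median-of-ratios factors, by 10 without the replicate block, by 15 with DESeq2 and by 47 in thinned cells, where measured. In lot 1772099, with 4 cholinergic cells, 17 of 104 measured kept it and 6 changed sign: Scg3 (0.14), Gfra2 (-0.30), Necab1 (-0.18), Sox11 (-0.62), Rab3b (0.045) and Vsnl1 (-2.85). Depth limits the genes with few counts, whose folds are given as bounds or counting intervals.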
